A study of Apis mellifera with 20 samples.

Results

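Among honeybee gene models with mean inputs within 3-fold across larval groups, 214 were recovered poorly by an m6A antibody at instars 1 and 3. These models had ratios closer to 1, though mostly still below it, at instar 5. They were chosen from 15314 models by 4 criteria on the deposited values. A model had to span under 64 kb (15013 models), reach 5 FPKM or more in all 10 input libraries (4301 of those) and keep its highest input group mean under 3 times its lowest (2376 of those, called stable models here). FPKM is a count of sequenced fragments divided by the length of the model and by the size of the library. The last criterion was an IP/input ratio of 0.33 or less in each of the 6 pairs of libraries from instars 1 and 3, where IP is the immunoprecipitated library and the input carries the same title number. It was met by 214 stable models, which is 9.01% of the 2376 and 1.40% of all models. Inputs and early ratios chose these members, so input levels and early ratios are given below as descriptions with no test. The instar 5 IP libraries had no part in the choice, but the instar 5 inputs, against which they were tested, did.

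The series compared 5 kinds of Apis mellifera larvae: instar 1 larvae (1D), which can still become either caste, queen (3Q) and worker (3W) larvae of instar 3, and queen (5Q) and worker (5W) larvae of instar 5. Each kind has 2 IP and 2 input libraries of fragmented polyadenylated RNA, and the IP used a Synaptic Systems m6A antibody. The labels give the material as larvae, with no organ, strain or number of animals, and leave unsaid whether the replicates are separate collections. The p-values then reflect nothing beyond the spread among these libraries, which may be technical. No library is a pulldown without the m6A antibody, so a ratio is not a measured m6A level.

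N6-methyladenosine is a methyl mark placed on adenosines inside messenger RNA by a methyltransferase complex built around METTL3 and METTL14. Proteins with a YTH domain bind it, and the mark is known to influence splicing, export, translation and decay of messages. In mammals many m6A sites lie in long internal exons and near stop codons, and many messages of housekeeping genes carry little of it. In honeybees the castes arise from the same kind of egg through different larval feeding.

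No member could be given a gene name: 0 of the 214 IDs, and 0 of all 15314, matched the RefSeq table of 12398 genes. Tissue and pathway marker lists were therefore not used here.

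The typical model did not have a ratio of 1 in the early libraries. Over the 6947 models above 1 FPKM in every library, the median IP/input ratio was 0.586 to 0.772 in the 6 early pairs and 0.973 to 1.17 in the 4 instar 5 pairs. A single model, GB43330, held 34.5% to 47.7% of the summed FPKM of the early IP libraries, 9.56% to 12.4% of the early inputs and at most 0.781% of any instar 5 library. Dividing each library by a median-of-ratios factor brought these medians to 0.949 to 0.974 and 0.985 to 1.02. The factors were computed on these same models, so medians near 1 follow from how the factors are made. Values are given below as deposited, and called scaled where this factor was used. Instar 5 inputs listed 4292 to 5430 models at 0, against 2993 to 3822 in the early inputs, while instar 5 IP libraries listed 1384 to 1734 at 0, against 2433 to 3667 in the early IP libraries. The part of this difference in the members' change of ratio was not tested. Read depth is unknown.

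In the early pulldowns the members had low and even ratios. Their median IP/input ratio was 0.216 and 0.205 in the 1D pairs, 0.258 and 0.232 in the 3Q pairs, and 0.251 and 0.242 in the 3W pairs. The other 2162 stable models had medians of 0.619 and 0.556, 0.691 and 0.640, and 0.728 and 0.717. Scaled, the members' medians were 0.304 to 0.341 and those of the other stable models 0.898 to 0.924. These gaps are what the ratio criterion selects.

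**Figure D1:**
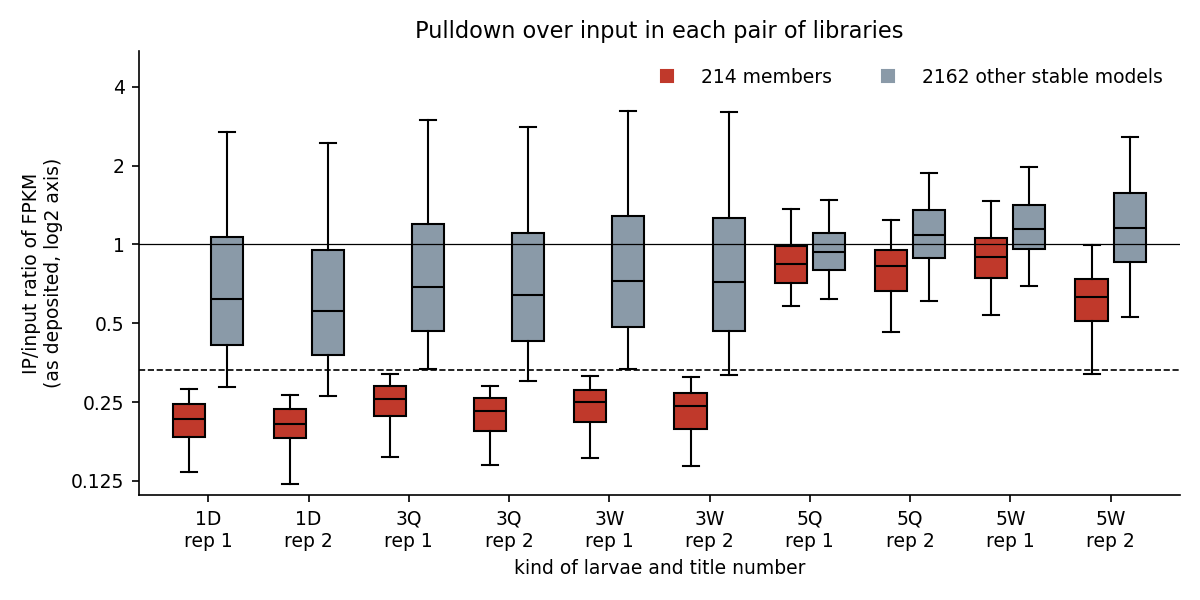
IP/input ratio of FPKM as deposited (log2 axis) in each of the 10 pairs of libraries for the 214 members and the 2162 other stable models. Boxes span the quartiles with the median as a line, whiskers run from the 5th to the 95th percentile, the dashed line marks 0.33 and the solid line 1. The members' medians lie at 0.205 to 0.258 in the early pairs, where the criterion holds them under the dashed line, and at 0.631 to 0.895 in the instar 5 pairs.

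The lowest early ratios belonged to GB53730 and GB44608. GB53730 (Group3.9, 1195806 to 1196058, plus strand) is also the shortest member, with a span of 253 bases. Its IP level was 5.07 and 4.72 FPKM in 1D, 14.2 and 11.9 in 3Q and 6.61 and 13.4 in 3W, against inputs of 67.5 and 65.7, 89.5 and 95.7, and 106 and 109 FPKM. Its 6 early ratios ran from 0.0625 to 0.159. GB44608 (Group5.14, 1109566 to 1111487, plus strand) had IP levels of 6.04 to 10.2 FPKM against early inputs of 43.0 to 95.2 FPKM, with ratios of 0.0974 to 0.141. IP and input did not overlap in any early kind for these models, and the criterion already demands a gap within each pair.

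At the other end, GB52736 (Group14.14, 132928 to 137988, minus strand) had early ratios of 0.281 to 0.325 and GB52671 (GroupUn188, 36850 to 48103, minus strand) of 0.277 to 0.320. GB52736 overlaps a model on the opposite strand, whose fragments cannot be told from its own because the library kit does not mark strand. The limit itself fell in a continuous range. The highest early ratio of GB49399 was 0.3298 and that of GB50128 was 0.3293, just inside it, while GB46028 reached 0.3304 and GB41725 reached 0.3316, just outside.

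At instar 5 the members stood nearer to their inputs. Their median ratio was 0.844 and 0.825 in the 5Q pairs and 0.895 and 0.631 in the 5W pairs. The other stable models had medians of 0.937 and 1.09 in 5Q and 1.15 and 1.15 in 5W. Scaled, the members' medians were 0.888 and 0.749 in 5Q and 0.764 and 0.536 in 5W. Those of the other stable models were 0.980 to 0.990. The counts that follow use ratios as deposited, whose typical value was higher at instar 5, so a limit of 0.33 is not alike between stages. No member was at 0.33 or less in all 4 instar 5 pairs, and neither was any other stable model (0% of 2376). In the second 5W pair alone, 12 members (5.61%) were at or under the limit as deposited and 22 (10.3%) when scaled. Among all stable models these were 47 (1.98%) and 66 (2.78%). At least 1 instar 5 pair was at or under 0.33 for 14 members (6.54%), and for 43 of the other stable models (1.99%). The lowest instar 5 ratio was above the highest early ratio for 208 of the 214 members, against 55.3% of all stable models. Because members had to be low early, part of that count is fixed by the choice.

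The members remained on the low side of the stable models at instar 5, in IP libraries that the choice did not use. The instar 5 inputs, which divide these ratios, did enter it through the input minimum and the stability limit. All 4 instar 5 ratios were below 1 for 106 members (49.5%), against 15.4% of all stable models and 12.1% of the others. All 4 were above 1 for 5 members, against 20.2% of all stable models. Ranked by ratio among the 2376 stable models, the median member stood at percentile 34.4 and 21.0 in the 5Q pairs and 21.2 and 11.97 in the 5W pairs. The lowest 10% of the ranking held 39 and 59 of the 214 members in 5Q and 66 and 89 in 5W. Above the middle of the ranking lay 67 and 32 members in 5Q, and 32 and 7 in 5W. A rank does not depend on how a library is scaled.

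The change from early to late was in the IP libraries more than in the inputs. The median IP level of the members was 5.36 to 8.92 FPKM in the 6 early libraries and 28.1, 26.7, 27.2 and 16.2 FPKM in the 4 instar 5 libraries. Their median input level was 21.2 to 38.8 FPKM early and 25.2 to 34.1 FPKM at instar 5. The median member's late ratio was 3.44 times its early ratio (geometric means over pairs), against 1.60 times for the other stable models. On scaled FPKM these were 2.26 and 1.05 times. The scaled IP level of the median member was 3.12 times its early level, with a scaled input at 1.35 times. For the other stable models these were 1.18 and 1.16 times. The early ratio chose the members, and the input minimum and stability limit kept their inputs within a range. Level inputs and a rise in IP are thus partly fixed by the choice, and neither has a test here.

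**Figure D2:**
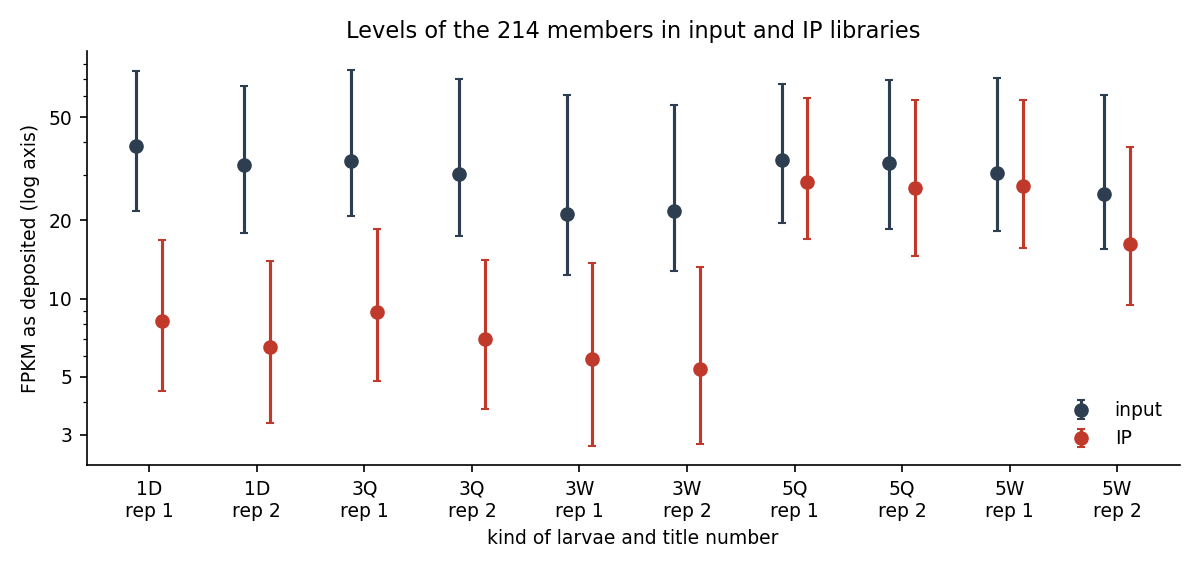
Levels of the 214 members in each of the 20 libraries, in FPKM as deposited (log axis). Points are medians and bars the quartiles. Median inputs lie between 21.2 and 38.8 FPKM throughout, while median IP levels lie between 5.36 and 8.92 FPKM before instar 5 and between 16.2 and 28.1 FPKM at instar 5.

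For each member, IP was tested against input at instar 5 with limma on log2(scaled FPKM + 1), fitted to the 8 instar 5 libraries and adjusted over all 10182 models tested. All 214 members passed the minimum for testing. The instar 5 inputs, against which IP was tested, had entered the choice through the input minimum and the stability limit. The counts and shares below, and those of the caste comparison, carry that limit. In 5Q the median log2 difference of the members was -0.28, against 0.10 for all models tested and -0.01 for the other stable models, and 84.1% of the members were negative against 40.8% and 51.7%. In 5W the median was -0.58, against 0.10 and -0.01, and 94.9% of the members were negative against 43.0% and 51.0%. Few single models passed. In 5Q, 0 members were called lower or higher (limma adjusted p under 0.05), where 0% of all models were called in either direction. At an unadjusted p under 0.05 there were 15 lower members (7.01% of members, 2.51% of all models) and 2 higher members (6.46% of all models). With IP and input paired by title number these were 31 (3.99% of all models) and 3 (8.7%). In 5W, 1 member was called lower, where 0.0982% of all models were, and 0 were called higher, where 0.167% were. At an unadjusted p under 0.05, 78 members were lower in 5W (36.4% of members, 6.6% of all models) and 0 were higher (11.1% of all models). On FPKM as deposited, 29 were lower in 5W (3.07% of all models).

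The counts depended on which libraries were fitted. In a fit to all 20 libraries, which also changes the scaling reference to 6947 models and the models tested to 10391, 9 members were called lower in 5Q (1.13% of all models) and 1 higher (2.49%), and 85 were called lower in 5W (6.55%) and 0 higher (10.3%). That fit shares its estimate of spread between early and instar 5 libraries. Replicate ratios of the members correlated, across genes, at r = 0.697, 0.735 and 0.682 in 1D, 3Q and 3W, but at 0.341 in 5Q and 0.420 in 5W. The criterion caps the members' early ratios. In the other stable models, r was 0.974, 0.979 and 0.973 in 1D, 3Q and 3W, 0.314 in 5Q and 0.552 in 5W. Such an r also depends on how widely the genes differ, so it does not measure replicate spread alone.

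The member called lower in 5W was GB53730. Its IP level was 19.4 and 14.2 FPKM in 5W against inputs of 94.3 and 76.0 FPKM, a difference of -2.48 ± 0.36 log2 units (SE from the fit to all 8 instar 5 libraries, limma adjusted p = 0.0485). IP and input did not overlap there. In 5Q its IP level was 29.8 and 66.5 FPKM against inputs of 59.2 and 76.1 FPKM, so that the higher IP value lay between the inputs. The 5Q log2 difference was -0.61 ± 0.36 (SE, limma adjusted p = 0.675). A pseudocount of 0.1 ended the 5W call (limma adjusted p = 0.0521), as did leaving out any one of 6 of the 8 libraries (limma adjusted p from 0.0782 to 0.468).

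GB55961 (GroupUn96, 13466 to 15407, plus strand, overlapping a model on the opposite strand) had the next lowest instar 5 ratios. Its IP level was 16.6 and 14.9 FPKM in 5Q and 10.8 and 5.03 in 5W, against inputs of 31.6 and 35.8, and 22.5 and 25.3 FPKM. The groups did not overlap in either caste. Its log2 difference was -1.08 ± 0.31 in 5Q and -1.75 ± 0.31 in 5W (SE, limma adjusted p = 0.334 and 0.0687), neither of which passed. Its early ratios, 0.191 to 0.262, lay in the middle of the members' range.

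The highest instar 5 ratios were those of GB53943 and GB53703. GB53943 (Group1.42, 20807 to 22223, minus strand) reached 22.8 and 21.6 FPKM in the 5Q pulldowns against inputs of 10.7 and 11.6 FPKM. In workers its IP level was 24.7 and 11.2 FPKM against inputs of 14.6 and 11.6. In the early libraries it had 4.93 to 9.31 FPKM in IP against 23.1 to 33.3 in input, so IP was under input in every early kind and over it in 5Q. GB53703 lies on Group3.9 (869400 to 870615, plus strand). Its IP level was 192 and 233 FPKM in queens against inputs of 103 and 148, and 194 and 136 FPKM in workers against 106 and 115. Its early IP levels were 36.8 to 92.9 FPKM against inputs of 145 to 292 FPKM. The 5Q differences, 0.91 ± 0.31 and 0.74 ± 0.27 log2 units (SE), did not pass (limma adjusted p = 0.439 and 0.465).

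**Figure D3:**
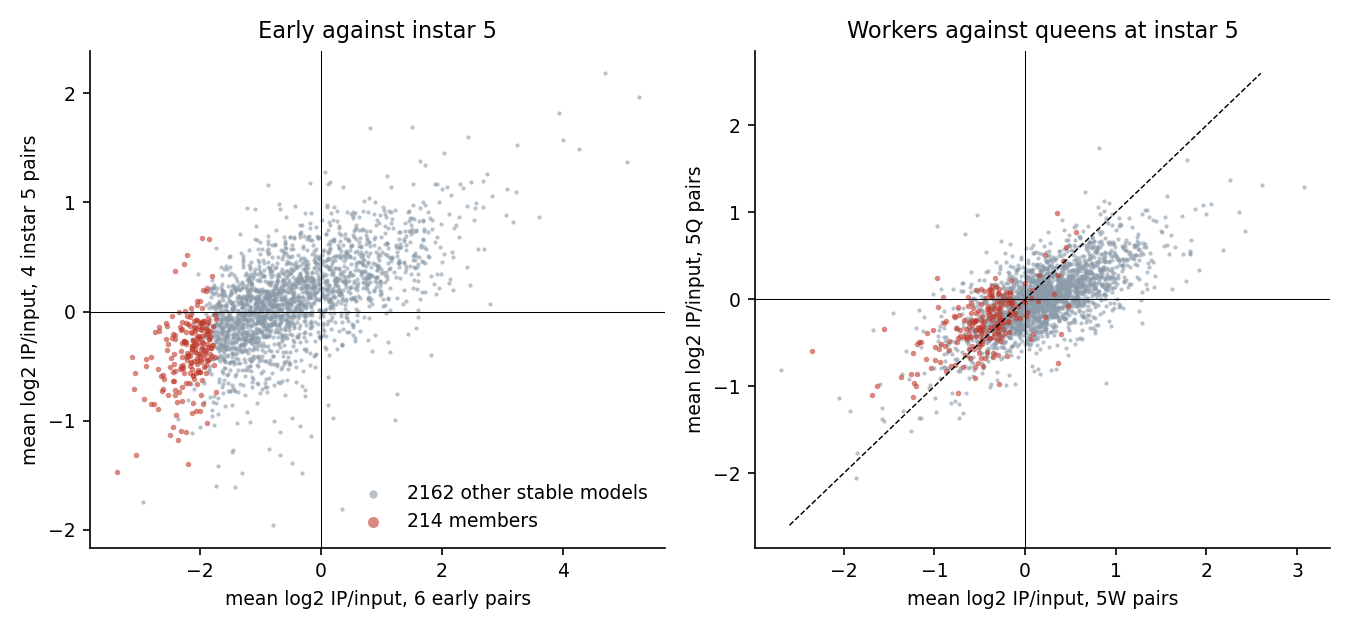
Each point is a stable model, members in red and the 2162 other stable models in grey. Left, mean log2 IP/input over the 4 instar 5 pairs against the mean over the 6 early pairs, where the criterion keeps the members at the left edge. Right, mean log2 IP/input of the 5Q pairs against the 5W pairs, with equality as a dashed line. Across the 214 members the early and instar 5 means had a Pearson r of 0.368.

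The spread among members was not compared between stages, since the limit of 0.33 caps the early ratios. Early geometric mean ratios ran from 0.0967 to 0.302, and instar 5 means from 0.360 to 1.59. Of the instar 5 means, the lowest 10% lay under 0.587 and the highest 10% above 0.957. Members that were lowest early tended to be lower late: Spearman's rho between the early and late mean log2 ratios was 0.318 over the 214 members, and 0.605 over the other stable models, whose early range is not cut off. The early and late ratios come from different libraries but share the lengths and sequences of the models. The 5Q and 5W mean log2 ratios of the members had a rho of 0.549.

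**Figure D4:**
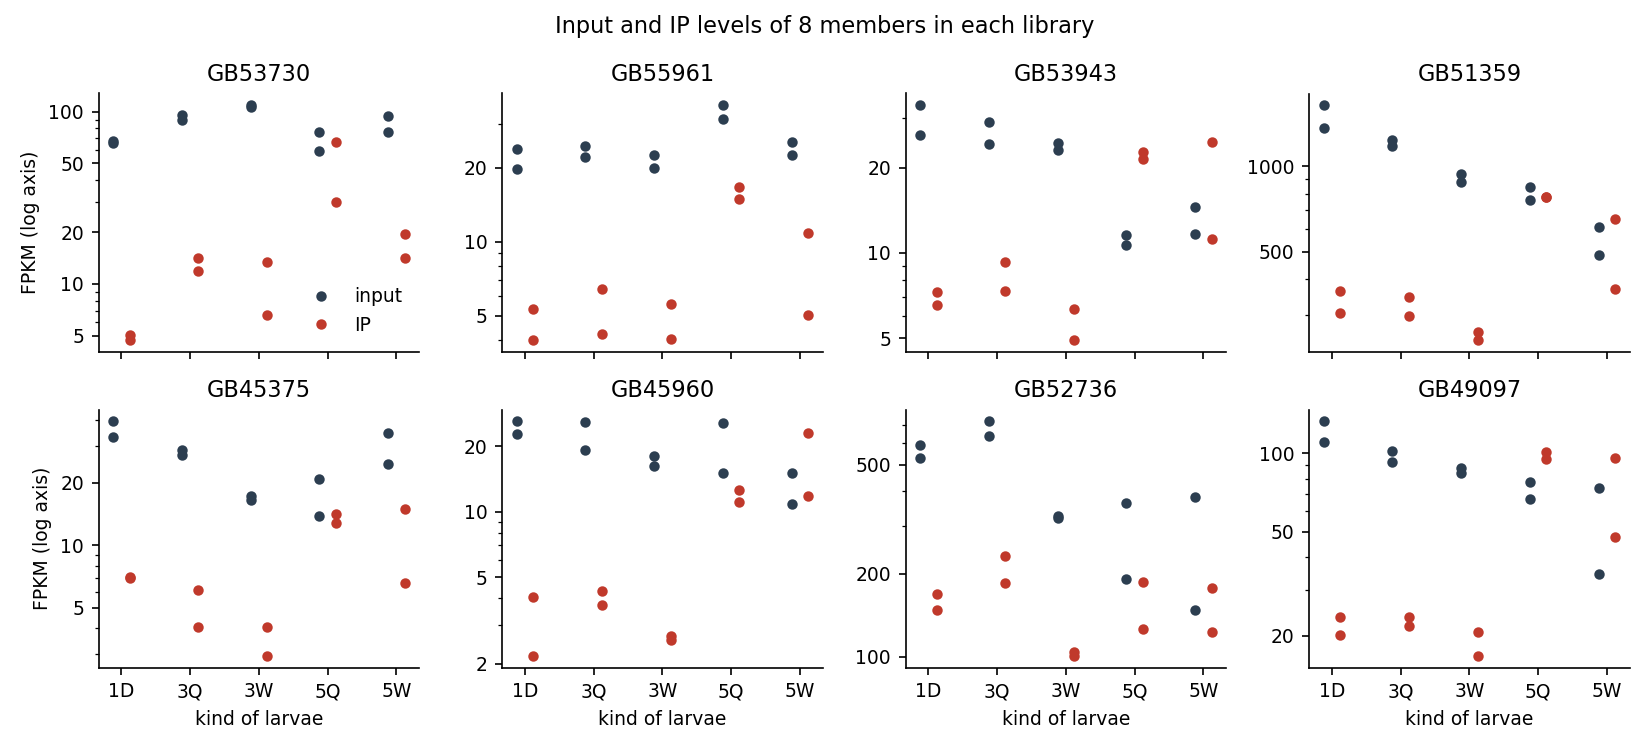
FPKM as deposited (log axis, a separate scale per panel) of 8 members in input (dark) and IP (red) libraries of each kind of larvae, 1 point per library. GB53730 keeps IP far under input in 5W, GB53943 and GB49097 have both 5Q IP values above both 5Q inputs, and GB51359 shows IP level with input in 5Q.

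Queens and workers were compared at instar 5 by the difference of their IP minus input differences. The members' median was 0.33 log2 units higher in queens, against 0.01 for all models tested and -0.02 for the other stable models. It was 0.15 without the second 5W IP library and 0.54 without the first, so these libraries moved it by over 1.5 times. No member was called (limma adjusted p under 0.05), and 0% of all models were. At an unadjusted p under 0.05, 4 members were higher in queens (1.38% of all models) and 0 were lower (1.57% of all models). With the pairing, 9 were higher (2.39% of all models). On FPKM as deposited the median was 0.17, against -0.14 for all models. With all 20 libraries 0 members were called. Both 5Q ratios were above both 5W ratios for 35 members (16.4%), against 7.87% of all stable models, and both were below for 12 members (5.61%), against 26.2%.

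The second 5W pair had the lowest instar 5 ratio for 148 members (69.2%), against 21.6% of the other stable models. Without its IP library, the unadjusted count of lower members in 5W was 19 (2.46% of all models) in place of 78, and 45 (4.35%) without its input. Without the first 5W IP library it was 92 (5.08%). The members' median 5W log2 difference was -0.41 without the second 5W IP library and -0.80 without the first. The labels give no batch or depth for this library, and the part of its making in the caste difference was not tested.

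The most positive queen minus worker differences were those of GB53730, given above, and GB45375 (Group6.37, 139534 to 141817, minus strand). The queen IP level of GB45375 was 12.8 and 14.2 FPKM against inputs of 20.9 and 13.9, which overlap. In workers it was 14.9 and 6.58 FPKM against 34.7 and 24.6, which do not. Its difference between castes was 1.30 ± 0.47 log2 units (SE, limma adjusted p = 1.00), and that of GB53730 was 1.87 ± 0.50 (SE, limma adjusted p = 1.00). In the other direction, GB45960 (Group16.8, 96637 to 97413, plus strand) had ratios of 0.835 and 0.432 in 5Q against 1.53 and 1.09 in 5W. GB48780 (Group10.27, 10773 to 14509, plus strand, overlapping a model on the opposite strand) had 0.637 and 0.896 against 1.998 and 0.872, and its castes overlap.

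Input levels of the members covered 8.25 to 993 FPKM as a mean over the 10 input libraries, with a median of 31.0 against 21.5 for the other stable models. Members were 19.2% of the 208 stable models above 100 FPKM, 10.1% of the 1107 at 20 to 100 FPKM and 5.84% of the 1061 under 20 FPKM. Input is the divisor of the ratio, and the input minimum entered the choice. At instar 5 the members' median ratio, as a geometric mean over the 4 pairs, was 0.758 under 20 FPKM, 0.797 at 20 to 100 and 0.767 above 100. In the other stable models it was 1.09, 1.07 and 1.08, so the members lay lower in each range.

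GB51359 (Group16.4, 1806036 to 1807902, plus strand, overlapping a model on the opposite strand) was the most abundant member. Its input was 1636 and 1358 FPKM in 1D, 1233 and 1180 in 3Q, 877 and 940 in 3W, 846 and 761 in 5Q, and 610 and 486 in 5W. Its IP level was 245 to 363 FPKM in the early libraries, 779 and 776 in 5Q and 652 and 369 in 5W. GB49999 (Group15.19, 2244018 to 2245445, minus strand) was steadier. Its input was 926 and 798 FPKM in 1D, 1214 and 1132 in 3Q, 930 and 944 in 3W, 1043 and 970 in 5Q, and 932 and 897 in 5W, while its IP level was 142 to 253 FPKM early and 658 to 896 FPKM at instar 5. GB49999 overlaps no other model. The least abundant members, GB46870 and GB48223, had mean inputs of 8.25 and 8.49 FPKM and instar 5 ratios of 0.507 to 0.840 and 0.678 to 0.962.

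Stable here means a limit on the input group means, not a constant level. The highest group mean was 1.19 to 3.00 times the lowest, with a median of 2.21 times, close to the 2.23 times of the other stable models. It was under 1.5 times for 12 members and over 2 times for 141, against 105 and 1475 of the 2162 other stable models. The highest group mean was in 1D for 77 members, in 5Q for 66, in 3Q for 36, in 5W for 25 and in 3W for 10, and the lowest was in 3W for 119. The share highest in 5Q was 30.8% of members and 17.3% of the other stable models, and the share highest in 1D was 36.0% and 52.1%. For 3Q, 5W and 3W these shares were 16.8% and 17.5%, 11.7% and 10.2%, and 4.67% and 2.82%. The share of members lowest in 3W, 55.6%, was near the 53.5% of the other stable models. Both 5Q inputs were above both 5W inputs for 76 members (35.5%) and for 27.8% of the other stable models, and both were below for 31 members (14.5%) and for 13.7%. On scaled FPKM the median input of the members was 21.4 to 26.4 in the early libraries and 30.9 to 37.3 at instar 5. The labels name larvae with no organ, and fewer cells of a type and less RNA per cell cannot be told apart. The input values chose the members, so these levels have no test.

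Members were somewhat shorter than the other stable models in genomic span, which counts introns and is not the length of the message. The median span was 2392 bases against 2940, and 75.7% of members and 64.4% of the others spanned under 4 kb. The share of stable models that were members was 11.6% under 1 kb, 10.2% at 1 to 4 kb, 6.95% at 4 to 16 kb and 1.96% from 16 kb up. Within each of the first 3 ranges the members' median instar 5 ratio was lower, at 0.722, 0.784 and 0.804, than that of the other stable models, at 1.14, 1.08 and 1.06. Among members, span had a Spearman's rho of 0.392 with the early mean log2 ratio and 0.112 with the instar 5 mean.

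**Figure D5:**
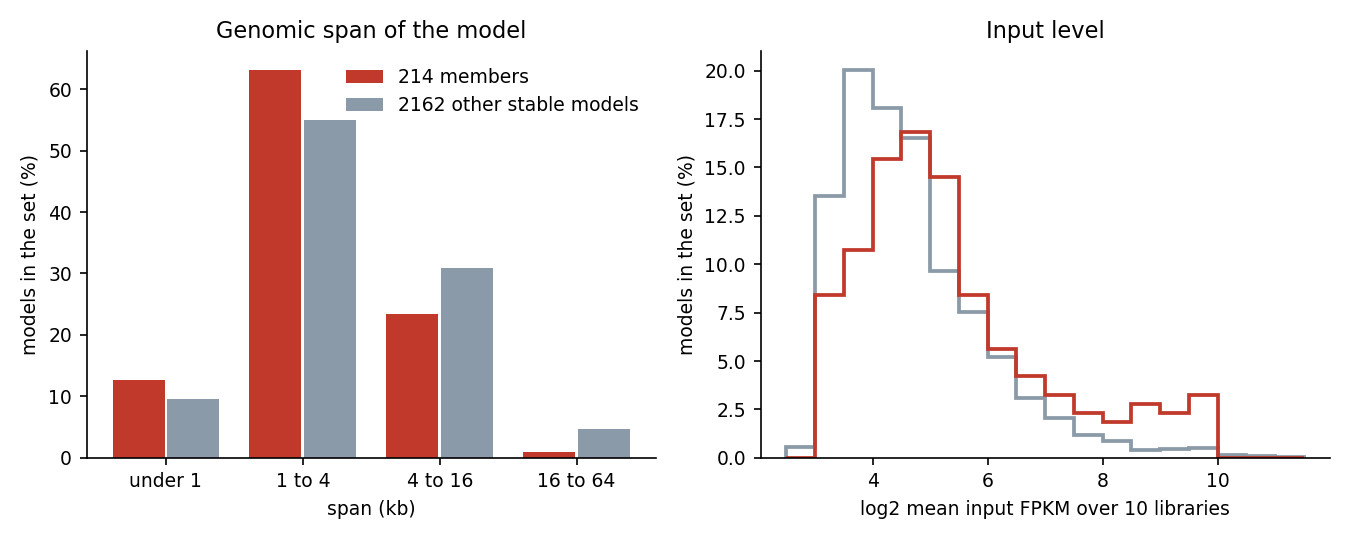
Left, percentage of the 214 members and of the 2162 other stable models in 4 ranges of genomic span. Right, distribution of log2 mean input FPKM over the 10 input libraries in both sets. Members had a median span of 2392 bases against 2940 and a median input of 31.0 FPKM against 21.5.

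Among the members named at the ends of the span range, the longest had the highest instar 5 ratios. GB49097 (Group3.4, 62313 to 118850, minus strand, overlapping a model on the opposite strand) was the longest, at 56538 bases. Its IP level was 16.7 to 23.6 FPKM early against inputs of 84.1 to 132 FPKM. In the 5Q pulldowns it reached 95.4 and 101 FPKM against inputs of 77.8 and 66.8 FPKM, and in 5W 96.3 and 47.7 FPKM against 73.9 and 34.6. All 4 of its instar 5 ratios were above 1, at 1.23, 1.51, 1.30 and 1.38. GB53596 (Group10.10, 95079 to 121024, plus strand), next in span at 25946 bases, had instar 5 ratios of 0.802, 0.729, 1.07 and 0.396. GB43930 (GroupUn4316, 733 to 1002, plus strand), the second shortest with 270 bases, had ratios of 0.205 to 0.263 early and of 0.930, 0.866, 0.602 and 0.787 at instar 5.

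The members lay on 106 scaffolds, 112 on the plus and 102 on the minus strand, and 25 lay on scaffolds named GroupUn. The scaffolds with the most members, Group10.26, Group11.18 and Group15.19, had 7 each, of 51, 95 and 66 stable models. Among scaffolds with 5 or more members, the share of stable models that were members ran from 7.37% (Group11.18) to 22.7% (Group8.21, 5 of 22). It was 21.4% on Group6.37 (6 of 28), 19.2% on Group4.6 (5 of 26) and 9.01% over all scaffolds. These scaffolds were picked for having many members, and grouping along the genome was not tested. Of 594 pairs of stable models that were direct neighbours, 8 were pairs of members, and the longest run had 2 members. Of these pairs 4 lay on the same strand, 2 diverged and 2 converged. The pair on Group3.15 (537180 to 538742) was GB47017 and GB47016, and the pair on Group8.21 (572367 to 585019) was GB51666 and GB51665. Another model overlapped 49 members, each from the opposite strand, which is 22.9% of members against 27.8% of the other stable models.

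GB52736 shows how far the instar 5 libraries could differ within a kind. Its inputs were 192 and 363 FPKM in 5Q and 147 and 383 in 5W, while its IP levels were 186 and 126, and 178 and 123. The ratio was 0.973 and 0.347 in 5Q and 1.21 and 0.322 in 5W, so the second pair of either caste lay near the early ratios and the first did not. Its log2 difference was -0.81 ± 0.54 in 5Q and -0.88 ± 0.54 in 5W (SE, limma adjusted p = 0.715 and 0.431). In contrast, GB52671 had ratios of 1.02 and 1.10 in 5Q and 1.01 and 0.741 in 5W.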

How the data were processed

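Each library has a table of FPKM, as deposited by the authors and named per the file headers, with a position for every one of 15314 gene models (1653 scaffolds). HISAT2 2.1.0 is listed in the submitters' processing notes. No source used here gives the build, the annotation or the FPKM program, so coordinates have no build and no sequence is printed. FPKM gives no depth, so counting errors are unknown. Groups and title numbers came from the labels. The members, named models and tests were chosen with earlier results of these data known. Named members were, by rule, those at either end of the early ratio, instar 5 ratio, input, caste difference and span, and those nearest the limit. The neighbour pairs on Group3.15 and Group8.21 were named outside these rules, as examples.

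For the test, the 8 instar 5 libraries were divided by median-of-ratios factors (7828 models above 1 FPKM in each), and those averaging 1 or more were tested. The fit was by limma 3.58.1 (R 4.3.3, eBayes with trend, threshold 0.05) to log2(FPKM + 1). This scale understates changes of low models. Same-numbered IP and input libraries deviated together in 1D and 3Q (r = 0.828 and 0.812), less in 5Q and 3W (0.500 and 0.330) and hardly in 5W (0.107). The numbers were taken to pair them in every kind. The labels do not explain the numbers, so the pairing rests on the data, which give little ground for it in 5W. Ratios and counts by 5W pair carry that doubt. Figures were drawn with matplotlib 3.10.9.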

Additional observations from a re-analysis of the deposited data

How the results depend on the processing

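The number of members followed the limit: 65 at a ratio of 0.25, 687 at 0.5 and 53 with the ratio on scaled FPKM, all 53 being members. Leaving out any of the early pairs gave 215 to 240. Judging input stability on scaled FPKM, chosen after seeing the data, gave 231, of which 177 were members.

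Members called lower in 5Q numbered 0, and 9 with all 20 libraries, which also called 1 higher. Members called lower in 5W numbered 1, but 0 with a pseudocount of 0.1, 4 with no filter, 85 with all 20 libraries, 2 with a weight per library and 0 to 1 when a library was left out. The weights came out equal for both libraries of every group, so none was weighted apart from its replicate. The replicate block, which pairs IP with the input of the same number, gave 0 in 5Q and 1 in 5W and changed no count of members called. The members' median 5Q ratio, 0.834, was 0.815 on scaled FPKM, 0.741 with the limit at 0.25 and 0.876 with the limit at 0.5, and 0.825 to 0.844 when a pair was left out. The 5W median, 0.752, was 0.640 on scaled FPKM and 0.631 to 0.895 when a pair was left out. Over all models, calls lower in 5W numbered 10, 48 with no filter, 681 with all 20 libraries, 50 with a weight per library and 0 to 52 when a library was left out. Calls higher in 5W numbered 17, and 44 on FPKM as deposited, 318, 1069, 66 and 0 to 92 under these. In 5Q they were 0 lower and 0 higher, and 10 and 156 with no filter, 117 and 259 with all 20 libraries, 1 and 0 with the block or on FPKM as deposited, and 0 to 5 lower and 0 to 1 higher when a library was left out. The caste difference called 0 models, but 8 lower and 3 higher in queens with all 20 libraries, 1 lower with a pseudocount of 0.1 and 1 higher without the first 5W input. Unknown depth and 2 libraries per group limit what the instar 5 test can call.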
